A study of Mus musculus with 6 samples.

Results

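Reactive astrocyte genes are described here in cultured mouse astrocytes after a rise in the microRNA miR-29. The set holds 30 genes that mark astrocytes responding to injury or inflammation, chosen by name: 8 pan-reactive genes, 8 A1-like genes, 12 A2-like genes, and Socs3 and Stat3 from the STAT3 pathway. Probes were assigned to them by RefSeq accession. Of the 30, 29 had a probe and all 29 were tested, among 19741 genes and transcripts in all; Ggta1, an A1-like gene, is not analysed here.

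The 6 samples were primary astrocytes from the cerebral cortex of C57BL/6 mice at embryonic day 18, bought as a culture, each hybridised to a 1-colour Agilent mouse array. The 3 miR-29 samples received precursors of human miR-29a, miR-29b and miR-29c mixed at 1 to 2 to 1, and the 3 control samples received a negative control precursor. Both were given at 80 nM, with a transfection reagent, 3 weeks after plating, and RNA was taken 48 h later. RNA extraction is described as done in triplicate. Separate cultures are not mentioned, and the p-values therefore rest on a spread among 3 samples that may be technical alone. No untransfected sample and no sample with an inflammatory stimulus is analysed here, so the comparison shows reactive genes at the level these cultures had on their own, with and without added miR-29.

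Astrocytes that meet injury, infection or inflammatory cytokines change shape and gene expression, which is called reactivity. Pan-reactive genes rise after many kinds of insult, A1-like genes were described after a bacterial lipopolysaccharide and A2-like genes after ischaemia, and the A1 and A2 names are now used as lists of markers rather than as separate cell types. Cytokines of the IL-6 family act through the shared receptor subunit gp130 and JAK kinases on the transcription factor STAT3, which drives part of the response and also induces SOCS3, the protein that shuts the pathway off.

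The transfected family is shown because every comparison rests on it. The mature mouse sequences in RefSeq (assembly GRCm38.p6) are written 5′ to 3′ with the seed, bases 2 to 8, in capitals.
mmu-miR-29a-3p: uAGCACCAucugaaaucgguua
mmu-miR-29b-3p: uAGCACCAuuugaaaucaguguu
mmu-miR-29c-3p: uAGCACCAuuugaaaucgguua
The 3 share their first 9 bases and so the whole seed, and 0 other miRNA names in the RefSeq table carry it. The miR-29a gene lies on chromosome 6 and the miR-29c gene on chromosome 1, and miR-29b is encoded beside each of them. A seed is the stretch through which a miRNA pairs with its messenger RNAs; whether these messages carry a matching site was not examined.

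Most reactive genes were lower in the miR-29 samples: 19 of the 29 fell, 8 rose and 2, Steap4 and Srgn, did not pass the test. The test was limma's moderated test with Benjamini-Hochberg adjustment over all 19741 genes and transcripts, at a threshold of 0.05. Change was common on these arrays, since 58.1% of everything tested passed, 22.7% lower and 35.3% higher, against 65.5% lower and 27.6% higher among the members. Values are log2 levels relative to the 75th percentile of the same array, and fold changes are log2 differences, miR-29 minus control. The median fold change of the members was -0.50, against 0.07 over all genes and transcripts. Amigo2 is counted among the 19, but it was kept through the control arrays alone and so could hardly have been called higher. With only genes well above background on all 6 arrays, which leaves Amigo2 out, 18 of 28 members were lower and 8 higher, against 23.9% and 35.8% of all genes.

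The sizes were moderate. S1pr3, Emp1 and Amigo2, the last kept through the control arrays alone, fell at least 2-fold. By the same rule 3.64% of all genes tested did, a share that also counts genes kept through 1 group alone. On the log2 scale 0 members rose by 1 or more. The 3 miR-29 arrays did not overlap the 3 control arrays for 27 members, where the same held for 66.2% of all genes. On every one of the 6 arrays 28 members were well above background, Amigo2 being the exception. By class, 6 of 7 A1-like genes fell and 0 rose (5 of 6 without Amigo2, and 5 of 7 with normexp background correction, an alternative treatment of dim spots), 9 of 12 A2-like genes fell and 3 rose, 4 of 8 pan-reactive genes fell and 3 rose, and both STAT3 axis genes rose. The medians were -0.64, -0.54, -0.20 and 0.82 in that order. With normexp the A2-like median was -0.28, with 7 lower and 2 higher, and the other 3 medians were -0.56, -0.22 and 0.79.

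**Figure D1:**
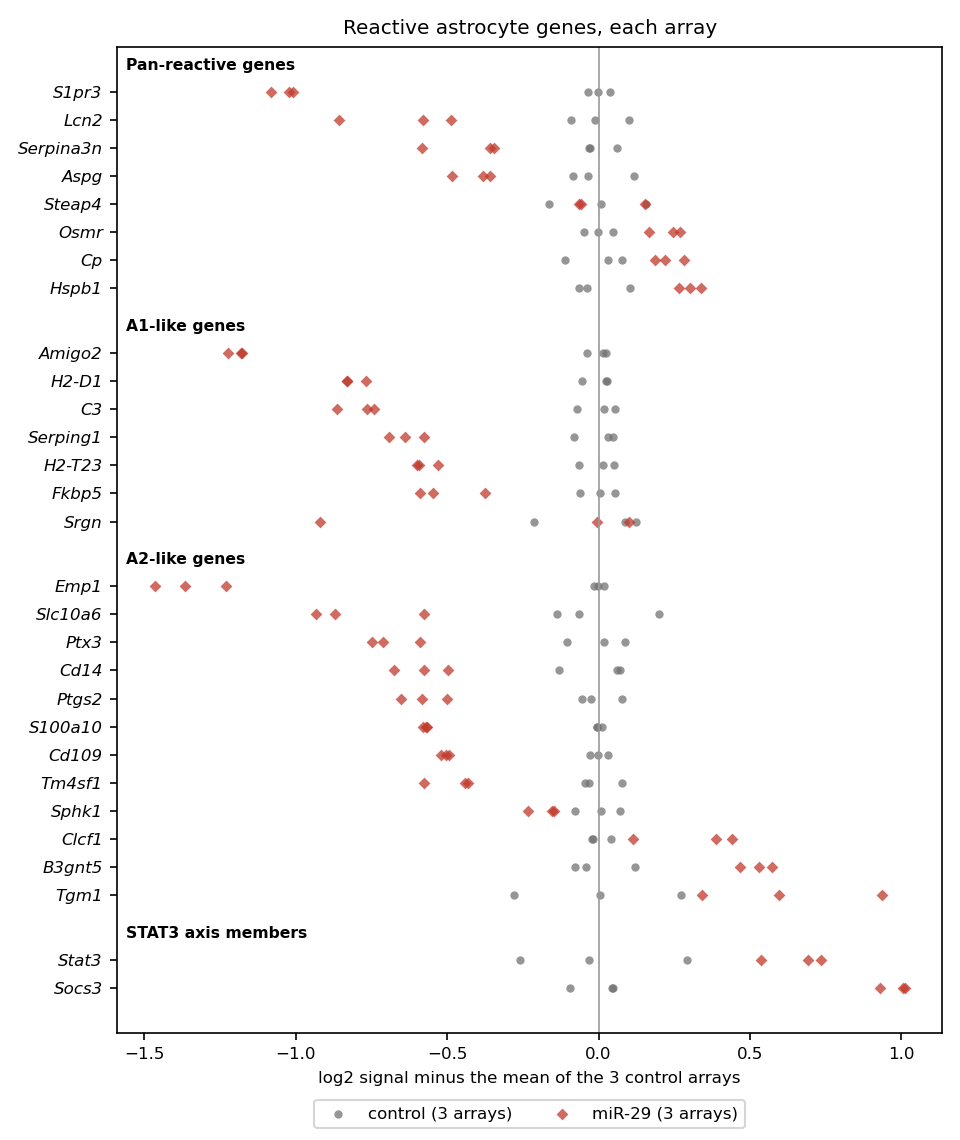
Log2 signal of the 29 members on each array, minus the mean of the 3 control arrays of that gene (x axis), by class; circles are control arrays and diamonds are miR-29 arrays. The diamonds lie left of all circles for the 19 genes that fell, overlap the circles for Steap4 and Srgn, and lie right of them for the 8 genes that rose.

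A scaling choice and the layout of the slides bear on the genes that rose. Scaled to the 6 detected spike-in controls in place of the 75th percentile, the median of all genes moved from 0.07 to -0.18, so that 38.5% were called lower and 15.2% higher. The same 19 of 29 members were then lower, and the higher ones went from 8 to 3, namely Socs3, Stat3 and B3gnt5. This scaling lowered every fold change alike, so no fall could have changed side. Of the control arrays only replicate 1 shared a slide with the 3 miR-29 arrays (slide 1), and the other 2 controls were on slide 2. All 19 lower and all 8 higher members kept their direction within slide 1. Their miR-29 and control arrays did not overlap, so this direction could not differ and is no separate check. With the slide as a block, 19 were called lower and 3 higher, namely Socs3, B3gnt5 and Hspb1. Slide 2 held controls alone, so the blocked fold changes equal those within slide 1 and rest on control replicate 1 alone.

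Among the pan-reactive genes the receptor S1pr3, one of the receptors for the lipid mediator sphingosine-1-phosphate, moved most. Its level was 2.27, 2.26 and 2.20 in miR-29 replicates 1 to 3 and 3.24, 3.32 and 3.28 in control replicates 1 to 3. All 3 miR-29 arrays lay well below all 3 control arrays, and the spread inside either group was small. The log2 fold change was -1.04 (SE 0.0477, adjusted p = 5.09e-05), a 2.05-fold fall.

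Secreted proteins of the pan-reactive class were divided. Lcn2, which encodes lipocalin-2, a secreted carrier of iron-binding siderophores and one of the most used markers of reactive astrocytes, was at -1.30, -1.20 and -1.57 with miR-29 and at -0.81, -0.61 and -0.73 in the controls. It fell by 0.64 (SE 0.110, adjusted p = 0.00369), with miR-29 replicate 3 the lowest of the 6. Serpina3n, a secreted serine protease inhibitor, was at 2.42, 2.44 and 2.20 against 2.75, 2.84 and 2.75. It fell by 0.43 (SE 0.0794, adjusted p = 0.00498), again with miR-29 replicate 3 lowest.
Cp, which encodes the copper-carrying ferroxidase ceruloplasmin, went the other way, at 4.18, 4.14 and 4.24 with miR-29 and 4.03, 3.84 and 3.99 in the controls. The rise of 0.23 (SE 0.0658, adjusted p = 0.0254) was smaller than the scaling shift: it was -0.02 with spike-in scaling, and it did not pass with slide as a blocking term (0.15, adjusted p = 0.179). It also did not pass without any 1 of miR-29 replicates 1, 2 and 3 or control replicates 2 and 3, with adjusted p between 0.0514 and 0.0773.

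The other pan-reactive genes moved little. Aspg, which encodes an asparaginase, was between 1.91 and 2.04 with miR-29 and between 2.32 and 2.52 in the controls, a fall of 0.41 (SE 0.0716, adjusted p = 0.00407). Hspb1, the small heat shock protein HSP27, was at 5.52, 5.44 and 5.48 against 5.28, 5.14 and 5.11. It rose by 0.30 (SE 0.0614, adjusted p = 0.00732), which was 0.05 with spike-in scaling (adjusted p = 0.499) and 0.20 with slide as a blocking term (adjusted p = 0.0411).
Osmr, the receptor subunit through which oncostatin M reaches gp130, was between 2.93 and 3.04 with miR-29 and between 2.72 and 2.82 in the controls. Its rise of 0.23 (SE 0.0531, adjusted p = 0.0124) was not shared by its other probe (0.05, adjusted p = 0.45), was -0.02 with spike-in scaling, and did not pass with slide as a blocking term (adjusted p = 0.0802) or without miR-29 replicate 1 (adjusted p = 0.0513).
Steap4, a membrane metalloreductase, did not pass: its 3 miR-29 values of -1.35, -1.13 and -1.34 lay among the control values of -1.44, -1.27 and -1.13. The difference was 0.01 with a 95% interval from -0.24 to 0.27.

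The A1-like genes were the class with no rise. H2-D1, which encodes a classical MHC class I heavy chain that shows peptides to CD8 T cells, was at 5.64, 5.58 and 5.58 with miR-29 and 6.44, 6.44 and 6.36 in the controls. It fell by 0.81 (SE 0.0492, adjusted p = 9.20e-05), or 1.75-fold. H2-T23, which encodes the nonclassical class I molecule Qa-1, a ligand of inhibitory receptors on natural killer cells, fell by 0.57 (SE 0.0525, adjusted p = 0.00034), from between 6.34 and 6.45 to between 5.80 and 5.87. Class I genes are close relatives, and whether their probes read each other's messages was not tested.

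The complement genes of the A1-like class fell together. C3, the central component of complement and the usual A1 marker, was at 4.18, 4.21 and 4.08 with miR-29 and 4.96, 5.00 and 4.88 in the controls. The fall of 0.79 (SE 0.0596, adjusted p = 0.000177) was 1.73-fold, and no miR-29 array came within 0.5 log2 units of a control array. Serping1, which encodes the C1 inhibitor that restrains the first step of the classical pathway, was at 2.58, 2.63 and 2.69 against 3.30, 3.19 and 3.32. Its fall was 0.64 (SE 0.0595, adjusted p = 0.000368).

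Amigo2, a leucine-rich repeat adhesion protein, was near background. It was at -4.86, -4.80 and -4.81 in the controls and was not well above background on any miR-29 array, where its measured values were -6.00, -6.05 and -6.00. Against the higher of its own value and the lowest signal well above background on each array, it was 2.11-fold lower with miR-29. The measured log2 fold change was -1.19 (adjusted p = 3.77e-05), at a probe kept through the control arrays alone. Neither size is a lower limit, because the size depends on how dim spots are treated. Normexp background correction gave -0.19 (adjusted p = 0.122).
Fkbp5, a co-chaperone of the glucocorticoid receptor that glucocorticoids induce, was between 1.43 and 1.65 with miR-29 and between 1.97 and 2.08 in the controls, a fall of 0.50 (SE 0.0728, adjusted p = 0.00191). Srgn, the proteoglycan serglycin, did not pass: it was at -4.40, -4.30 and -5.32 against -4.31, -4.28 and -4.61. One array set its difference of -0.27 (95% interval from -0.97 to 0.42), which was 0.05 without miR-29 replicate 3.

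The A2-like genes fell in 9 of 12 cases. Emp1, a tetraspan membrane protein of the PMP22 family and a usual A2 marker, fell most of all 29 members. It was at 4.52, 4.42 and 4.66 with miR-29 and 5.87, 5.88 and 5.90 in the controls. The log2 fold change was -1.35 (SE 0.0696, adjusted p = 5.97e-05), a 2.56-fold fall, with the controls within 0.05 of each other. Tm4sf1, another small membrane protein with 4 membrane passes, was between 4.83 and 4.97 against 5.36 to 5.48, a fall of 0.48 (SE 0.0640, adjusted p = 0.00136).

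Cd109, a GPI-anchored protein that restrains TGF-beta signalling, was at 3.74, 3.72 and 3.73 against 4.27, 4.23 and 4.21 at the probe used. It fell by 0.51 there (SE 0.0435, adjusted p = 0.000276) and by more at its other probes. S100a10, the p11 partner of annexin A2 at the membrane, was the tightest member, at 5.19, 5.20 and 5.18 with miR-29 and 5.76, 5.76 and 5.77 in the controls. It fell by 0.57 (SE 0.0409, adjusted p = 0.00015).
Cd14, the co-receptor for lipopolysaccharide, and Slc10a6, a transporter of sulfated steroids, were close to background but well above it by the scanner's test on all 6 arrays. Cd14 was at -4.74, -4.64 and -4.56 against -4.00, -4.19 and -3.99, a fall of 0.58 (SE 0.0788, adjusted p = 0.00147). Slc10a6 was at -4.76, -5.05 and -5.11 against -3.98, -4.32 and -4.24, a fall of 0.79 (SE 0.129, adjusted p = 0.00306). Neither call held under normexp background correction, which compresses dim spots and gave -0.17 for Cd14 (adjusted p = 0.135) and -0.19 for Slc10a6 (adjusted p = 0.136).

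Ptx3 and Ptgs2 fell by similar amounts. Ptx3, a secreted pentraxin that marks microbes and damaged cells for the innate immune system, was at 0.12, 0.27 and 0.15 with miR-29 and 0.76, 0.95 and 0.88 in the controls. It fell by 0.68 (SE 0.0726, adjusted p = 0.000582). Ptgs2, which encodes cyclooxygenase-2, the inducible enzyme of prostaglandin synthesis, was at -2.81, -2.89 and -2.96 against -2.33, -2.36 and -2.23, a fall of 0.58 (SE 0.0637, adjusted p = 0.000661) (-0.37 with normexp, adjusted p = 0.00113). The groups of both genes lay clear of each other.
Sphk1, a kinase that makes sphingosine-1-phosphate, was between 4.27 and 4.36 with miR-29 and between 4.43 and 4.58 in the controls. Its fall of 0.18 (SE 0.0582, adjusted p = 0.0404) was the smallest of the 19, and it did not pass without any 1 of miR-29 replicates 1, 2 and 3 or control replicates 1 and 2, with adjusted p between 0.0659 and 0.124, nor with the replicate number as a block.

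The A2-like genes that rose were B3gnt5, Clcf1 and Tgm1. B3gnt5, a glycosyltransferase that starts lacto-series glycolipids, was at -1.61, -1.54 and -1.50 with miR-29 and -1.95, -2.15 and -2.12 in the controls. It rose by 0.52 (SE 0.0685, adjusted p = 0.0013), 0.27 with spike-in scaling (adjusted p = 0.0325) and 0.40 with slide as a blocking term (adjusted p = 0.00667).
Clcf1, a secreted cytokine of the IL-6 family, was at 1.74, 1.47 and 1.80 against 1.33, 1.34 and 1.39, with miR-29 replicate 2 nearest to the controls. Its rise of 0.32 (SE 0.0936, adjusted p = 0.0292) was 0.06 with spike-in scaling (adjusted p = 0.623). It did not pass with slide as a blocking term (adjusted p = 0.104) or without any 1 of miR-29 replicates 1 and 3 and control replicates 1, 2 and 3, with adjusted p between 0.0578 and 0.0918.
Tgm1, a transglutaminase that cross-links proteins, was dim and widely spread, at -3.64, -3.30 and -3.90 against -3.96, -4.23 and -4.52. The rise of 0.62 (SE 0.196, adjusted p = 0.0354) did not pass with spike-in scaling (0.37, adjusted p = 0.113), with slide as a blocking term (0.35, adjusted p = 0.293) or with normexp background correction (0.22, adjusted p = 0.0979). Nor did it pass without any 1 of miR-29 replicates 1 and 2 and control replicates 2 and 3, with adjusted p between 0.0803 and 0.0970.

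The STAT3 axis moved against most of the markers. Socs3, the feedback inhibitor that binds gp130 and JAK kinases, was at 4.97, 4.98 and 4.90 with miR-29 and 4.01, 4.02 and 3.87 in the controls. Its log2 fold change was 0.98 (SE 0.0597, adjusted p = 9.23e-05), a 1.97-fold rise, and was 0.73 with spike-in scaling (adjusted p = 0.000193). It was the largest rise among the members.
Stat3 was at 2.60, 2.56 and 2.40 with miR-29 and at 2.16, 1.84 and 1.61 in the controls. Its rise was 0.65 (SE 0.145, adjusted p = 0.0102), and 0.40 with spike-in scaling (adjusted p = 0.0267). The control array on slide 1 was the highest control, and within slide 1 the difference was 0.36, with an adjusted p = 0.0637 once the slide was a block.

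Other genes of IL-6 family and JAK-STAT signalling moved in both directions. Of 20 genes tested, 9 rose and 3 fell; the other 8 did not pass and the median was 0.18; scaling to the spike-ins gave 4 higher and 6 lower. Cytokines and inhibitors led the rises: Il11 by 1.47 (SE 0.108, adjusted p = 0.000163), Socs1, a relative of Socs3, by 1.21 (SE 0.0758, adjusted p = 9.92e-05), and Il6 by 0.89 (SE 0.0781, adjusted p = 0.0003). Il6 lay between -0.14 and 0.03 with miR-29 and between -1.03 and -0.83 in the controls.
The 3 falls were in receptor and signalling genes. Il6st, which encodes gp130 itself, was at 1.87, 1.81 and 1.87 against 2.66, 2.56 and 2.63, a fall of 0.77 (SE 0.0503, adjusted p = 0.000113). Ptpn11, the phosphatase SHP2 that binds gp130, fell by 1.56 at the probe used (SE 0.0646, adjusted p = 4.15e-05), with the remaining 2 at -0.62 and -0.85. Stat5b was the other gene that fell (-1.08). Jak1, the kinase that carries the signal from gp130, did not pass (0.00, SE 0.0455).

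**Figure D2:**
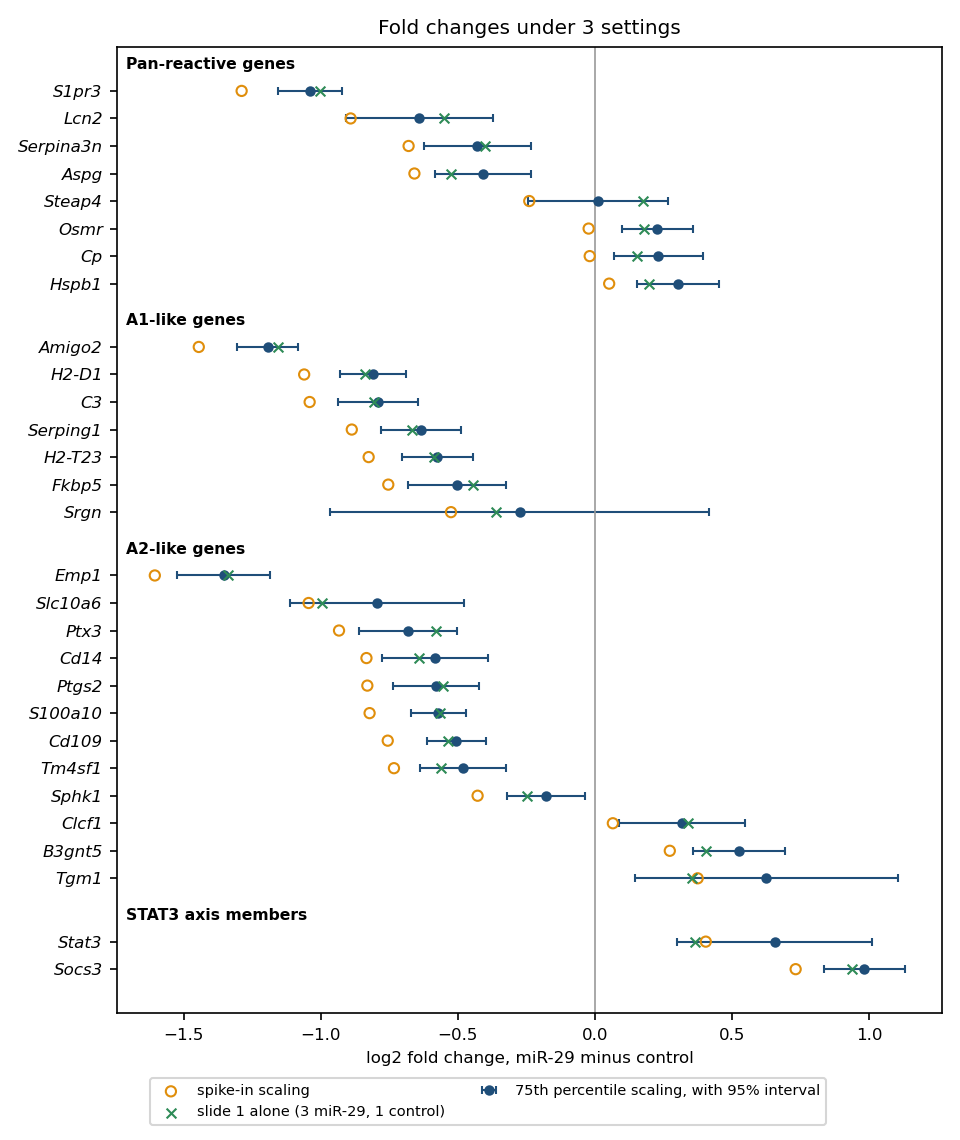
Log2 fold change of each member, miR-29 minus control (x axis): filled circles with 95% intervals from limma after 75th percentile scaling, open circles after spike-in scaling, crosses within slide 1 (3 miR-29 arrays and 1 control). Osmr and Cp cross 0 with spike-in scaling, and Amigo2 is drawn at its measured value although it was not well above background with miR-29. The 19 falls keep their side under all 3 settings, which could not be otherwise. Spike-in scaling lowered every fold change alike, and the arrays of these 19 did not overlap between groups.

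Probe agreement gives a second reading of the same RNA. The members had 43 probes, 42 of them kept, and 11 members had several kept probes, 24 in all. In 8 of these 11 all probes were lower past the threshold, and in all 11 the probes had the same sign. The same counts were not made over all genes with several probes. By the main test, 22.7% of all genes and transcripts were lower. S1pr3 fell by 1.04 and 1.20, H2-D1 by 0.81 and 0.99, Ptx3 by 0.68 and 0.69, and Ptgs2 by 0.58 and 0.76. C3 fell by 0.79 at the probe used and by 0.77 at the other, which the scanner called above background on only 1 miR-29 array. That other C3 probe was thus kept through the control arrays alone and could hardly have come out higher.
Size differed between probes for Cd109, at -0.51, -0.83 and -1.18. For Fkbp5, probes at -0.50 and -0.52 stood beside one at -0.10 that did not pass (adjusted p = 0.526). Which transcripts these probes read was not examined. Probes of one gene on one array share the RNA, so they are not replicates of the condition.

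**Figure D3:**
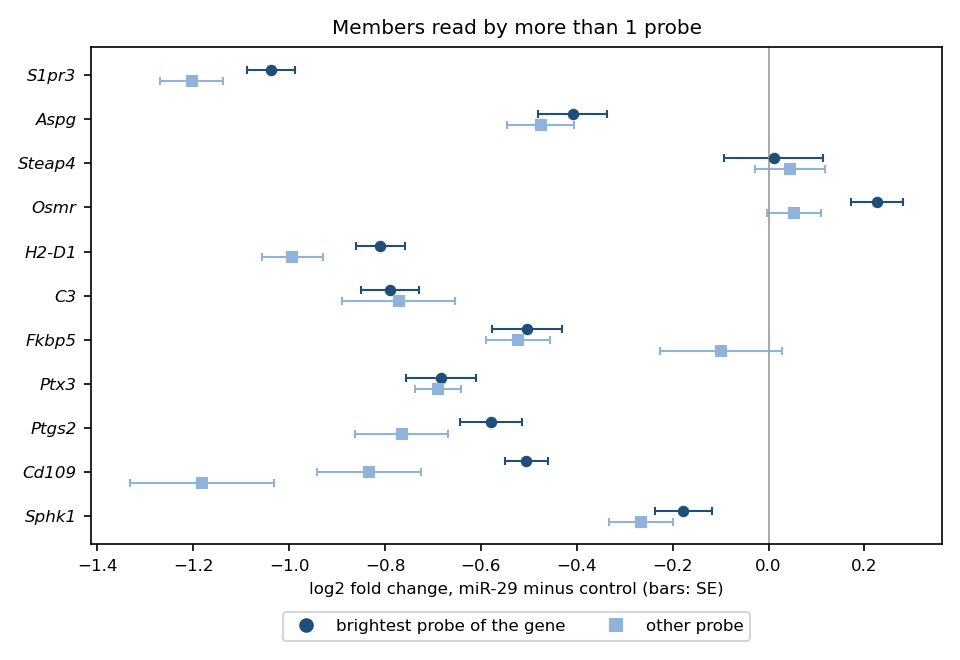
Log2 fold change with SE (x axis, miR-29 minus control) for each kept probe of the 11 members with several; the circle is the brightest probe of the gene and squares are its other probes. The probes of S1pr3, Aspg, H2-D1, C3, Ptx3, Ptgs2, Cd109 and Sphk1 all lie left of 0, while 1 of the 3 Fkbp5 probes lies at -0.10 and the probes of Osmr lie at 0.23 and 0.05.

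Promoters of members that rose, fell and did not pass are printed because STAT3 and NF-kB, the factors named with these lists, bind short motifs. STAT factors recognise TTCNNNGAA, a palindrome that reads alike on both strands. In the RefSeq windows (assembly GRCm38.p6, from 250 bases before the start site to 50 after it; the array was designed on another build), 25 members had at least 1 window. The motif was found in 5 of them, Emp1, Socs3, Sphk1, Steap4 and Tgm1, and in 7.02% of all 32851 windows; 6 of the 33 member windows held it. The narrower form TTCCNGGAA, which is part of the first motif's matches, was in Steap4 alone among the members and in 0.913% of all windows. The NF-kB motif, GGGRNNYYCC (R is A or G, Y is C or T), was sought on both strands. It was in H2-D1, Sphk1, Steap4 and Tm4sf1, in 4 of the 33 member windows and in 7.25% of all windows.
The 250 bases before the start site follow, 5′ to 3′ on the strand of the gene, with the matched motif in capitals (TTCNNNGAA for the first 3, NF-kB for H2-D1).
Socs3, chr11:117969367-117969616, minus strand: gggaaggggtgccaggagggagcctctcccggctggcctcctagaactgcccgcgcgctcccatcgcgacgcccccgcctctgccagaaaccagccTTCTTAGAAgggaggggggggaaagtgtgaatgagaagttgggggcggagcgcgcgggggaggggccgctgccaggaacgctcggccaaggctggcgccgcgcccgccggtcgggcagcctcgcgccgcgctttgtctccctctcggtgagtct
Emp1, chr6:135362681-135362930, plus strand: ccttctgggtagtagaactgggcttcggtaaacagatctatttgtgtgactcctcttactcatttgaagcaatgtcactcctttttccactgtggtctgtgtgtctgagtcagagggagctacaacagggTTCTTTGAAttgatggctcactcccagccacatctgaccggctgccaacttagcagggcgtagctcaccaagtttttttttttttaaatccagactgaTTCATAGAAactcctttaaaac
Steap4, chr5:7960222-7960471, plus strand: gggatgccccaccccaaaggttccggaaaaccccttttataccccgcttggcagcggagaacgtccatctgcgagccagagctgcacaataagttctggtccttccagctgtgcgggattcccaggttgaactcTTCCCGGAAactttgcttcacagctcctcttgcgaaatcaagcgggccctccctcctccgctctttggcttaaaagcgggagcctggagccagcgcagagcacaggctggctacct
H2-D1, chr17:35262844-35263093, plus strand: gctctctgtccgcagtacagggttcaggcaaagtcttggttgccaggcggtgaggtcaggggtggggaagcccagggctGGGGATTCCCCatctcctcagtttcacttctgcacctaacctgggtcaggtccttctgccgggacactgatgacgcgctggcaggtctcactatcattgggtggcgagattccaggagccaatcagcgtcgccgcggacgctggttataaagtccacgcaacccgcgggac
Socs3 rose, Emp1 fell and Steap4 did not pass, and each of the 3 windows holds TTCNNNGAA, so it was found in genes of all 3 outcomes. The Emp1 window, 1 of 2 for this gene, holds it at 2 places. A match is only a string of letters, and binding was not measured here.

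Beyond the members, the filament gene Gfap was higher. Of 9 further genes of the signature, Gfap and the immunoproteasome subunit Psmb8 rose, Gbp2 fell and the other 6 missed the threshold; scaling to the spike-ins gave 1 higher, Gfap, and 4 lower, with Psmb8 at 0.05 (adjusted p = 0.500). Gfap, the intermediate filament that defines reactive astrocytes, rose by 0.62 (SE 0.0774, adjusted p = 0.00111), and Vim, the other filament, did not pass (0.05, SE 0.0979). Gbp2, an interferon-induced GTPase, fell by 0.24 (adjusted p = 0.0137), without passing once the slide was a block (adjusted p = 0.0860) or without miR-29 replicate 1 (adjusted p = 0.0522).

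The pathways around H2-D1, H2-T23, C3 and Serping1 were read from lists of their partners. In class I antigen presentation, 7 of 14 genes tested were lower and 5 higher. The peptide transporter Tap1 fell by 1.73 (SE 0.0776, adjusted p = 4.71e-05), the heavy chain H2-K1 by 0.96, the loading factor Tapbp by 0.93 and the light chain B2m by 0.84. The immunoproteasome subunits Psmb9 and Psmb10 rose by 1.10 and 0.90; the genes named for loading and display fell, and these peptide-cutting subunits rose. In complement, 5 of 13 genes fell and 2 rose: C2 fell by 0.77 and Cfb by 0.75, both partners of the convertases that cleave C3, while Cfi, a protease that inactivates C3b, rose by 0.65 (0.34 with normexp), and Clu, an inhibitor of the terminal complex, by 0.29 (0.04 with spike-in scaling, adjusted p = 0.613). With spike-in scaling these lists had 9 lower and 3 higher, and 9 lower and 1 higher.

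Around Fkbp5, 7 of 10 glucocorticoid receptor and target genes fell and 2 rose, with a median of -0.44. Scaled to the spike-ins this list had 8 lower and 1 higher, and once the slide was a block 5 lower and 2 higher. Errfi1 fell by 1.14, Per1 by 0.83 and Sgk1 by 0.80, and the receptor gene Nr3c1 by 0.41 (SE 0.0519, adjusted p = 0.00115), while the chaperone Fkbp4 rose by 0.50. Around Ptgs2, 6 of 11 prostaglandin genes fell and 4 rose, with the receptor Ptger4 at -0.92 and the synthase Ptges2 at 0.96. Ptger4 was close to background, and normexp gave -0.23 for it (adjusted p = 0.0781), short of the threshold. The prostaglandin list had 6 lower and 2 higher when scaled to the spike-ins, and 4 lower and 3 higher once the slide was a block.
Around S1pr3 and Sphk1, 5 of 12 sphingosine-1-phosphate genes fell and 5 rose, with the median at 0.22 and, scaled to the spike-ins, at -0.03. The receptors were divided: S1pr2 fell by 0.68 (SE 0.0560, adjusted p = 0.000234) while S1pr1 rose by 0.66 (SE 0.0605, adjusted p = 0.000349). The lyase Sgpl1, which destroys the lipid, rose by 0.65.
In IL-1, TNF and NF-kB signalling, 6 of 23 genes fell and 4 rose, and the remaining 13 missed the threshold. The feedback inhibitors Nfkbie and Tnfaip3 fell by 0.98 and 0.83 and the receptor Tlr4, with which Cd14 works, by 0.54, whereas Bcl3 rose by 0.56. The NF-kB subunit Rela did not pass (0.02, SE 0.0718). The cytokine genes Il1a, Il1b and Tnf were not well above background on any array. Scaling to the spike-ins gave 13 lower and 1 higher in this list.

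**Figure D4:**
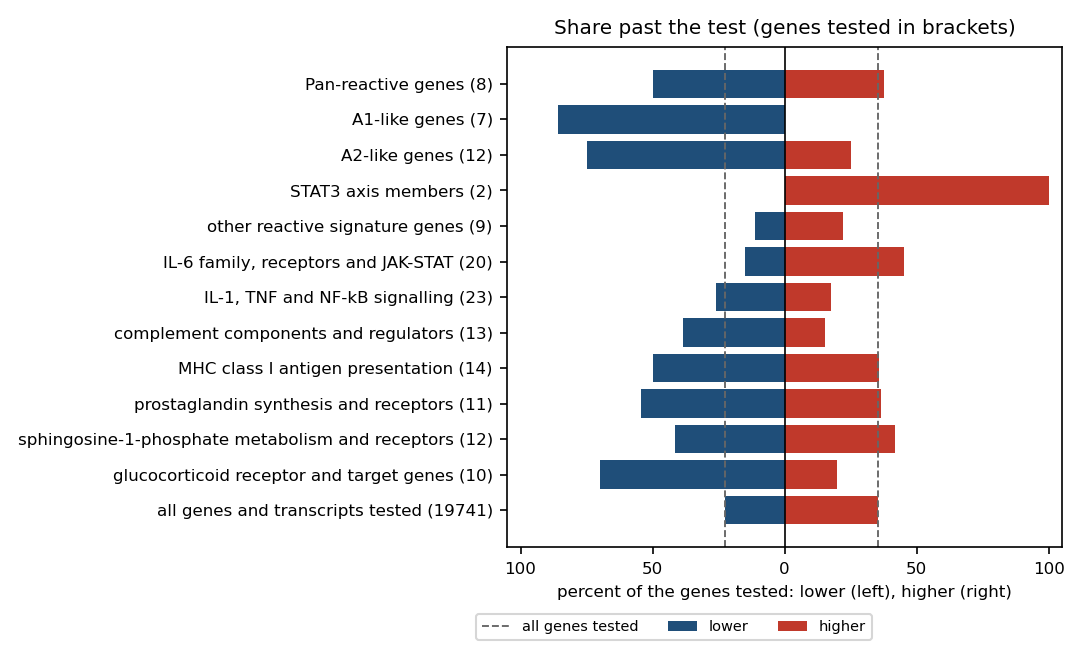
Percent of the genes tested in each list that were lower (left of 0) or higher (right of 0) with miR-29 at an adjusted p under 0.05; the number tested is in brackets and dashed lines mark all 19741 genes and transcripts, at 22.7% lower and 35.3% higher. A1-like genes, Amigo2 included, reach 85.7% lower with 0 higher, A2-like genes 75% lower, and the list of glucocorticoid genes 70% lower.

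The arrays were of like quality: 62% to 66.8% of probes were well above background, 0 spots were saturated, and arrays correlated at 0.994 to 0.998 across genes within a group. Of 11 astrocyte markers 10 were tested, Aldh1l1, Aqp4, Slc1a3 and Sox9 among them, and Gjb6 was at background level on all 6 arrays. Of the 10, 6 rose and 1 fell (3 and 1 when scaled to the spike-ins, 6 and 0 once the slide was a block), with a summed level (linear signal over the array's 75th percentile) of 85.6 to 95.4 with miR-29 and 64.1 to 67.2 in the controls. Fewer cells of a type and less RNA per cell cannot be told apart in such bulk samples. C3, Cd14 and the class I genes are also expressed by microglia, and 2 of 4 microglia markers tested here fell and 1 rose, with a summed level of 3.26 to 3.52 against 4.39 to 4.85. That sum was mostly Tmem119, at a mean log2 level of 1.66 with miR-29 and 2.09 in the controls. The falls were Tmem119 (-0.43) and Csf1r (-1.39), the last close to background, opposed by another probe (0.37) and not past with slide as a blocking term (adjusted p = 0.179). The rise was P2ry12 (0.53, adjusted p = 0.0307), also close to background and at 0.10 with normexp (adjusted p = 0.382). Aif1, Cx3cr1, Ptprc, Trem2 and Tyrobp were not well above background on any array. Emp1, Tm4sf1, S1pr3 and S100a10 are also expressed by fibroblasts, vessels and meninges. The fibroblast, meningeal and mural markers summed to 559 to 605 with miR-29 and 354 to 395 in the controls, 5 of 9 higher and 2 lower. Such sums follow the brightest genes. The 2 lower were Pdgfrb (-0.67) and Slc6a13 (-0.60, near background and -0.07 with normexp). The higher included Myh11 (1.61, near background in the controls and 0.55 with normexp), Cnn1 (1.34) and Tagln (0.68). The 3 endothelial markers tested summed to 1.73 to 1.85 against 2.05 to 2.41, 1 higher and 1 lower. Of the oligodendrocyte lineage 4 of 7 markers rose and 2 fell, and of neurons 1 of 6 rose and 2 fell. The part of these cell types in the members' changes was not tested.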

How the data were processed

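Total RNA of 6 samples was read on 1-colour arrays. Per the file headers, Agilent Feature Extraction 10.7.3.1 gave the processed signal, a background-subtracted spot intensity on a linear scale; the value table the authors deposited holds the same intensity times 1 constant per array. Log2 intensity minus the array's 75th percentile was used, without control and outlier-flagged spots. Of 41174 probes, 26428 were kept, those detected (well above background) on every array of either group. Probes were named by unversioned RefSeq accession in a table for GRCm38.p6 (26933 matched 1 gene, 14241 none), and a gene was read from its kept probe with the highest mean. The test was limma's (version 3.58.1, lmFit then eBayes, R 4.3.3), two-sided, on all 6 arrays with no covariate. The procedure was tested on simulated data with few genes changed and no slide effect. That simulation therefore does not cover the wide change and the slide layout of these arrays.

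The members, the lists and the tests were chosen with earlier results of these data known. Named are the members, up to 3 genes lower and 3 higher of each other list, and a few fixed genes; some genes that this takes, and 1 planned cell type marker, are not reported here. Normexp used the median signal, since the files hold no mean signal column, with an offset of 50. With each gene's group mean subtracted, same-numbered arrays of the 2 groups correlated at 0.132, 0.0938 and 0.245. For miR-29 replicates 1 to 3 the highest correlation with a control of another number was 0.0265, 0.0351 and -0.0811. The main test did not take the numbers as pairs, and the result with the replicate number as a block is given below. There were 0 columns of other samples.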

Additional observations from a re-analysis of the deposited data

How the results depend on the processing

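S1pr3, H2-D1, C3, Emp1 and Socs3 kept direction and call under all 18 alternatives that give a test. Of 521 member values tested under them, 446 kept both, 67 no longer passed and 8 changed sign. Within slide 1, which has no test, 9 of 29 values moved by more than the spread between replicates. The 19 members called lower numbered 16 to 19 under every alternative with a test except the test against a log2 change of 0.5 (treat), which left 5 lower and 1 higher, and 2022 genes called in place of 11461. The 8 called higher became 5 with median centring, 3 with spike-in scaling, 5 with no filter (32225 genes tested) and 3 with the slide as a block. Leaving out each array in turn gave 4 to 7 higher and 18 to 19 lower. Of all called genes 60.8% were higher, against 28.4% with spike-in scaling (7607 lower, 3010 higher). Changes of sign were Steap4, at -0.240 with spike-in scaling, -0.0432 with the deposited table, -0.0133 with normexp and from -0.0717 (control replicate 1 left out) to 0.0881 over the arrays left out in turn; Osmr at -0.0237 and Cp at -0.0198 with spike-in scaling; and Srgn, from -0.462 to 0.0479 (miR-29 replicate 3 left out). The cause was not tested. With the replicate number as a block (replicate block) 18 were lower and 8 higher. With group means subtracted, each array correlated best with the array of its own number in the other group. Signal close to background limits Amigo2, Slc10a6, Cd14 and Tgm1, which did not pass with normexp.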
